A study of Mus musculus with 9 samples.

Results

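The variable genes of the immunoglobulin kappa light chain were examined in splenic B cells from leukemia-prone mice. Every gene whose symbol begins with Igkv was taken, which gave 160 of the 54838 genes in the count table, on chromosome 6 of GRCm38 between 67555497 and 70704177. Of these, 100 were annotated as functional V genes and 60 as pseudogenes, in 20 sequence families. Each gene was expressed as a share of the summed Igkv counts of its library. The genes were taken by symbol alone, but earlier results of these data were known when this set was chosen.

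The 9 libraries came from separate mice labelled as C57BL/6N. All mice carried the human TCL1 transgene under the B-cell Eµ enhancer, a widely used model of chronic lymphocytic leukemia (CLL). The Eµ-PRMT5/TCL1 mice also carried human PRMT5, an arginine methyltransferase, driven by a mouse VH promoter and the IgH µ enhancer in immature and mature B cells. The Eµ-TCL1 group held 2 animals aged 3 months and 2 aged 6 months, the Eµ-PRMT5/TCL1 group held 3 aged 3 months and 2 aged 6 months, and the comparisons addressed the effect of age and of PRMT5 on a TCL1 background. Mice without the TCL1 transgene were not analysed here.

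During B-cell development a cell joins a single V gene of the kappa locus to a J segment, and the joined exon is spliced to the constant exon Igkc. Because the progeny of a cell keep the same joined V gene, a diverse B-cell population shows transcripts of many V genes, whereas an expanded clone shows an excess of its own. V genes lie in both orientations relative to the J segments, so that some join by deletion and others by inversion of the DNA between them. Unjoined V genes and pseudogenes can also be transcribed at a low level from their own promoters.

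The V exons of the genes that led the 6-month Eµ-PRMT5/TCL1 libraries are given first, since the largest values of the report belong to them. They were read 5′ to 3′ on the coding strand from the GENCODE transcripts of GRCm38. Igkv3-5 (chr6:70663596-70663895, plus strand, the last 300 of 310 bases of its V exon) is set beside its nearest relative Igkv3-10 (chr6:70572931-70573230, plus strand), and capitals mark the 6 bases at which they differ. Igkv5-48 (chr6:69726573-69726870, minus strand) and Igkv4-80 (chr6:69016558-69016856, minus strand) follow with the whole exon, and capitals there mark the codon of the conserved cysteine before the third complementarity-determining region.
Igkv3-5: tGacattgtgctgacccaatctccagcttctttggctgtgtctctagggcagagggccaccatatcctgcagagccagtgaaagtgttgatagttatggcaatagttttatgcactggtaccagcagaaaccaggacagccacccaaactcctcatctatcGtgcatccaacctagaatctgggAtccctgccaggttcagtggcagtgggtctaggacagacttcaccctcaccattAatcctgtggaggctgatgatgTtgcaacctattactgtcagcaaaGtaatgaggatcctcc
Igkv3-10: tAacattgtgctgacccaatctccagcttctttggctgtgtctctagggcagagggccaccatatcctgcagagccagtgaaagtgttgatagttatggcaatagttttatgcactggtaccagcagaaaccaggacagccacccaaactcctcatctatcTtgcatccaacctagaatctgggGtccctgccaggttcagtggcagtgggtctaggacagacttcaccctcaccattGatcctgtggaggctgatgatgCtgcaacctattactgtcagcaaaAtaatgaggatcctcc
Igkv5-48: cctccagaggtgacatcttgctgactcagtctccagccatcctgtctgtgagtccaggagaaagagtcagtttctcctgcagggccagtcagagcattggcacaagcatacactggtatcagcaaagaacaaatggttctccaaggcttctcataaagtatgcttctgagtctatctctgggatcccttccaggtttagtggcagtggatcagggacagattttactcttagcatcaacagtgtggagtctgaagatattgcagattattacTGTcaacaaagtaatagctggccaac
Igkv4-80: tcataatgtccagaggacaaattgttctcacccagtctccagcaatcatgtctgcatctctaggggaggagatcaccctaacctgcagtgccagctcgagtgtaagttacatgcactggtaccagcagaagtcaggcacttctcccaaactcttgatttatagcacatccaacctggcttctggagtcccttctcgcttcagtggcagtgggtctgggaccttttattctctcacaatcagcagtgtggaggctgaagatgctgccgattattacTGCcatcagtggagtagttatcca

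Igkv3-5 and Igkv3-10 were 98.1% identical over the exon, so fragments of the one could in part have been counted for the other. In replicate 1 of the 6-month Eµ-PRMT5/TCL1 mice, Igkv3-5 had 27538 counts and Igkv3-10 had 45. Merging genes at 97% identity gave a largest share of 81.9% of Igkv counts there, against 81.7% unmerged. Exchange of fragments was not tested. The 3 leading genes were not close to each other: Igkv5-48 and Igkv4-80 were 67.5% identical, Igkv3-5 and Igkv5-48 68.2%, and Igkv3-5 and Igkv4-80 69.5%. Across the 100 functional genes the median identity to the nearest other Igkv gene was 94.8%, and 15 genes had a relative above 97%. The ends of the V exons that led the other libraries, and of the pseudogene Igkv4-77 described later, show the germline start of the third complementarity-determining region, which begins after the cysteine codon in capitals. Igkv5-39 is chr6:69900424-69900459, minus strand. Igkv19-93 is chr6:68736297-68736332, minus strand. Igkv14-126 is chr6:67896607-67896642, plus strand. Igkv12-89 is chr6:68834846-68834881, minus strand. Igkv4-77 is chr6:69110904-69110939, minus strand.
Igkv5-39: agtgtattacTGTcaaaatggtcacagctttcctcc
Igkv19-93: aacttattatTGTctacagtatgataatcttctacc
Igkv14-126: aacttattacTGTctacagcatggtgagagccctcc
Igkv12-89: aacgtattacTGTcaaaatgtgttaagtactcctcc
Igkv4-77: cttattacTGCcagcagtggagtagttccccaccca

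Total counts ranged from 12233230 to 17330246 per library, and 3 counts corresponded to 0.173 to 0.245 CPM, the count divided by the library total and scaled. All 7 B-cell markers were detected in every group, with a summed level of 4286 and 5651 CPM in the 6-month Eµ-PRMT5/TCL1 libraries and 2248 to 3934 CPM in the other 7. All 13 T-cell markers were detected as well, at 589 and 749 CPM against 1191 to 1784 CPM. The 9 myeloid markers summed to 8383 and 1047 CPM in replicates 1 and 2 of these mice and to 2071 to 14470 CPM in the other 7. Fewer cells of a type and less RNA per cell cannot be told apart in bulk RNA. Y-linked transcripts were at 506 CPM or more in both 6-month Eµ-TCL1 libraries and in replicate 1 of the 3-month Eµ-PRMT5/TCL1 mice, and at or near 0 in the other 6, so sex cannot be told apart from age in the Eµ-TCL1 comparison, from genotype at 6 months, or from the interaction of both.

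Igkv counts summed to 16945 and 14608 in 3-month Eµ-TCL1 mice, and to 16111 and 11138 at 6 months. In Eµ-PRMT5/TCL1 they summed to 11095, 18051 and 10305 at 3 months and to 33693 and 41461 at 6 months. Scaled to the library total, these sums were 2043 and 2805 CPM in the 6-month Eµ-PRMT5/TCL1 mice and 717 to 1331 CPM in the other 7. Kappa V transcripts as a whole were thus higher in both 6-month Eµ-PRMT5/TCL1 libraries than in any other, without overlap, and the sums were not tested. Igkv counts per count of Igkc, the constant exon, lay at 1.24 and 1.13 in these mice and at 1.253 to 1.75 elsewhere.

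In the 6-month Eµ-PRMT5/TCL1 mice, 1 V gene held 81.7% of kappa V counts in replicate 1 and 2 held 92.6% in replicate 2, and the genes were not the same in the 2 mice. In replicate 1, Igkv3-5 held 27538 counts, or 81.7% (Wilson 95% interval 81.3 to 82.1). In replicate 2, Igkv5-48 held 20580 counts, or 49.6% (49.2 to 50.1), and Igkv4-80 held 17802 counts, or 42.9% (42.5 to 43.4). The second gene of replicate 1, Igkv14-126, held only 1.78%, and the third gene of replicate 2, Igkv4-77, held 0.982%. Replicate 1 therefore had a single leading gene, while replicate 2 had a pair at similar levels.

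The same 3 genes were minor in all other libraries. Igkv3-5 took 0.242% and 0.568% of Igkv counts in 3-month Eµ-TCL1 mice, 0.639% and 0.431% at 6 months, 0.811%, 0.593% and 1.88% in 3-month Eµ-PRMT5/TCL1 mice, and 0.0217% in replicate 2 at 6 months, where 9 counts were found. Igkv5-48 ranged from 0.137% in replicate 1 of the 6-month Eµ-PRMT5/TCL1 mice to 1.37%, outside replicate 2. Igkv4-80 ranged from 0.0416% to 0.664% in the same 8 libraries. For each of the 3 genes the lowest share was found in the 6-month Eµ-PRMT5/TCL1 mouse led by another gene.

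Among the other 7 libraries Igkv5-39 was the recurrent leading gene. It was the largest in both Eµ-TCL1 libraries at 3 months, at 30.4% (29.7 to 31.1) and 10.1% (9.63 to 10.6), and in replicates 1 and 2 of the 3-month Eµ-PRMT5/TCL1 mice, at 20.4% (19.6 to 21.1) and 20.9% (20.4 to 21.5). The remaining 3 libraries each had a leading gene of their own. Igkv12-89 led replicate 3 of the 3-month Eµ-PRMT5/TCL1 mice with 8.64% (8.11 to 9.19). In 6-month Eµ-TCL1 mice, Igkv19-93 led replicate 1 with 13.2% (12.6 to 13.7) and Igkv14-126 led replicate 2 with 21.5% (20.8 to 22.3), with Igkv5-39 next at 18.4%. Large single shares were thus present in mice of both genotypes at 3 months, and the highest of these 7 was 30.4%.

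**Figure D1:**
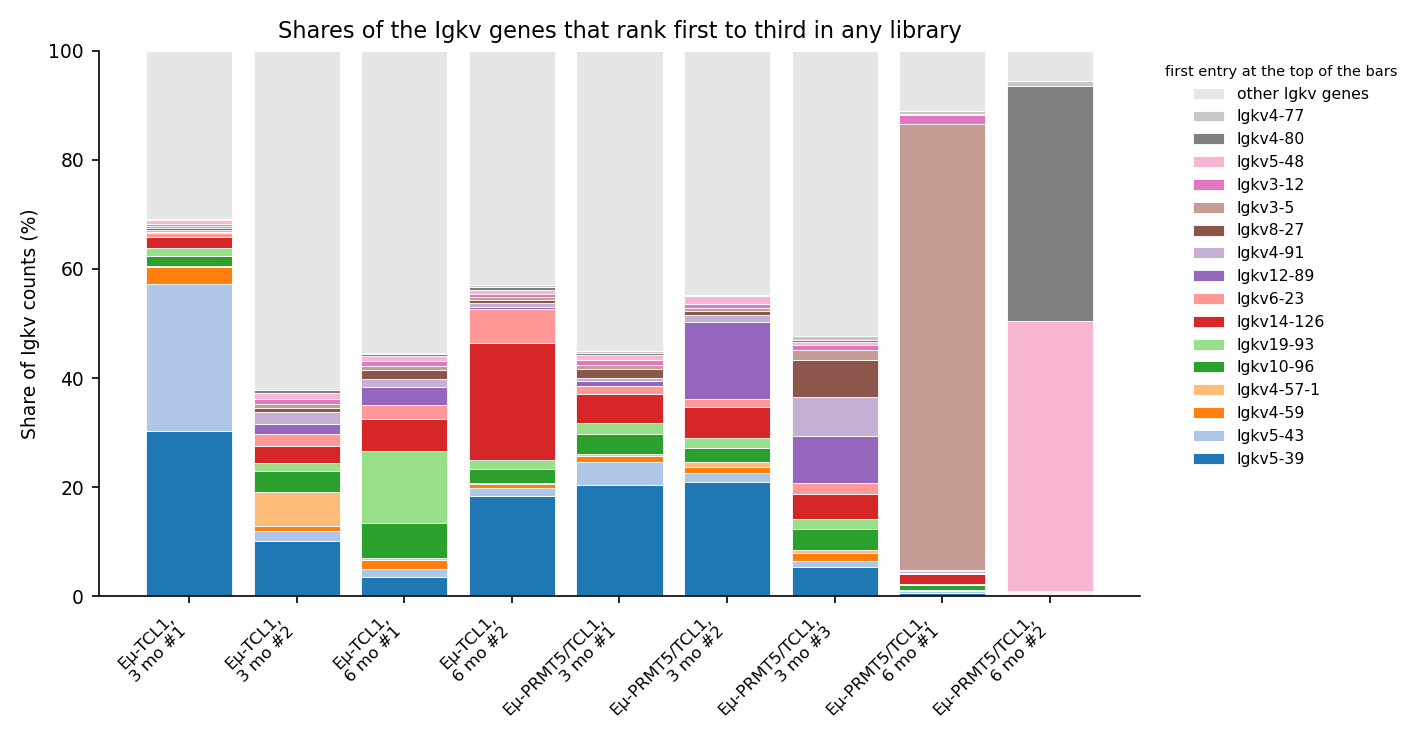
Stacked bars of the share of summed Igkv counts (percent, y axis) in each of the 9 libraries, with a colour for each of the 16 genes that ranked among the 3 largest in any library and light grey for all other Igkv genes. Igkv3-5 fills 81.7% of the bar of replicate 1 of the 6-month Eµ-PRMT5/TCL1 mice, and Igkv5-48 and Igkv4-80 fill 49.6% and 42.9% of the bar of replicate 2.

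The second genes showed the same mouse-to-mouse variation. Igkv5-43, a family 5 gene 91.3% identical to Igkv5-39 over the V exon, held 26.9% in replicate 1 of the 3-month Eµ-TCL1 mice and at most 4.28% in any other library. The 2 largest genes together held 57.2% in that mouse, 16.2% in its group mate, and 19.6% and 39.9% in 6-month Eµ-TCL1 mice. They held 25.7%, 35.2% and 15.8% in 3-month Eµ-PRMT5/TCL1 mice, and 83.5% and 92.6% at 6 months. The spread among the 7 other mice was wide, and the 2 6-month Eµ-PRMT5/TCL1 values lay above all of it. These shares are of counts, but dividing counts by exon length left the largest and the second gene the same in all 9 libraries, since the 16 genes that ranked in the first 3 anywhere had 338 to 382 annotated bases.

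Diversity was summarized by the effective number of genes, the number of equally used genes that would give the same Shannon index. It was 16.6 and 55.3 in 3-month Eµ-TCL1 mice, 46.96 and 28.9 at 6 months, 42.2, 31.5 and 49.8 in 3-month Eµ-PRMT5/TCL1 mice, and 3.21 and 3.25 at 6 months. The group means were 35.97 ± 27.4 (SD, n = 2), 37.9 ± 12.8 (n = 2), 41.1 ± 9.198 (n = 3) and 3.23 ± 0.0264 (n = 2). Both 6-month Eµ-PRMT5/TCL1 libraries were below every other library, and the other 3 groups overlapped one another. The lowest value among the other 7 came from replicate 1 of the 3-month Eµ-TCL1 mice, the mouse with the Igkv5-39 and Igkv5-43 pair.

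Evenness, which is 1 when all detected genes are used equally, was 0.246 and 0.248 in the 6-month Eµ-PRMT5/TCL1 mice and 0.584 to 0.827 in the others. A single gene sufficed for 50% of Igkv counts in replicate 1 of these mice and 2 genes in replicate 2, while the other mice needed 2 to 15. For 90% the numbers were 9 and 2 genes against 36 to 52. The number of genes detected was somewhat lower: 114 and 115 genes had at least 1 count in the 6-month Eµ-PRMT5/TCL1 mice, against 120 to 134 elsewhere. Drawn down to 10305 Igkv counts, the size of the smallest library, the expected numbers were 100.8 and 86.9 against 114 to 133.

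**Figure D2:**
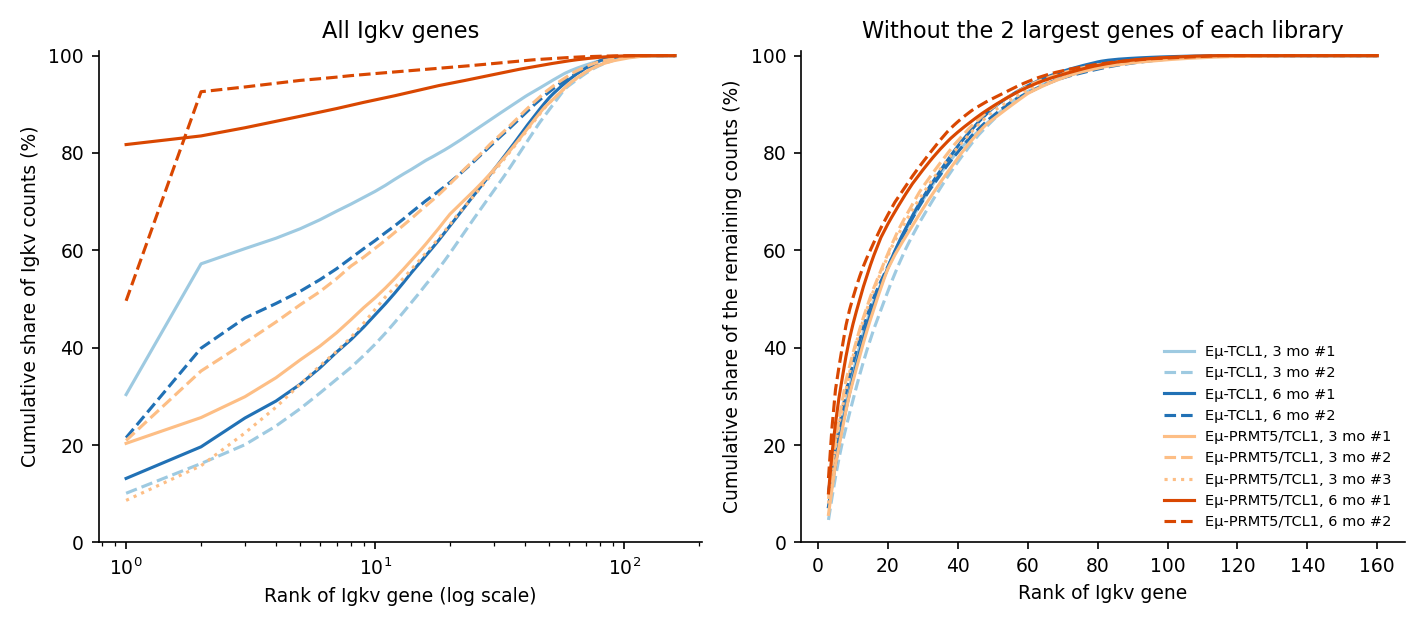
Cumulative share of Igkv counts (percent, y axis) against the rank of the gene within its library, for all Igkv genes (left, log rank axis) and for the counts left without the 2 largest genes (right, linear rank axis), a line per library. On the left the 6-month Eµ-PRMT5/TCL1 lines reach 83.5% and 92.6% at the second gene, and on the right they lie slightly above the others.

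With the largest gene left out, the effective number of the remaining genes was 44.1 in replicate 1 of the 6-month Eµ-PRMT5/TCL1 mice, inside the range of 23.5 to 60.3 in the other 7, and 2.62 in replicate 2, where Igkv4-80 made up 85.3% of the rest. With the 2 largest left out, it was 46.5 and 40.5 against 52.2 to 62.3. The background of V gene use in these mice was therefore made of many genes, with an effective number below that of each of the other 7 libraries. Drawing all libraries down to the 3079 counts left in replicate 2 gave 45.5 and 40.5 against 51.1 to 60.6. The number of genes expected among 3079 of these counts was 106 and 113 in the 6-month Eµ-PRMT5/TCL1 mice, inside the 99.94 to 116 of the others, so the number of background genes did not separate these mice.

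The background was also lower in level. After the 2 largest genes were removed, Igkv transcripts amounted to 337 and 208 CPM in the 6-month Eµ-PRMT5/TCL1 mice, 662, 863 and 709.6 CPM at 3 months, 553 and 896 CPM in 3-month Eµ-TCL1 mice, and 747 and 431 CPM at 6 months. The median functional gene stood at 1.304 and 0.643 CPM in the 6-month Eµ-PRMT5/TCL1 mice and at 2.48 to 6.37 CPM in the other 7. Of the 100 functional genes, 12 had no count in each 6-month Eµ-PRMT5/TCL1 library, against 1 to 6 elsewhere, and a count of 0 allows up to the 3-count level. T-cell markers were lower in the same 2 libraries, and the part of cell composition in these levels was not tested.

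**Figure D3:**
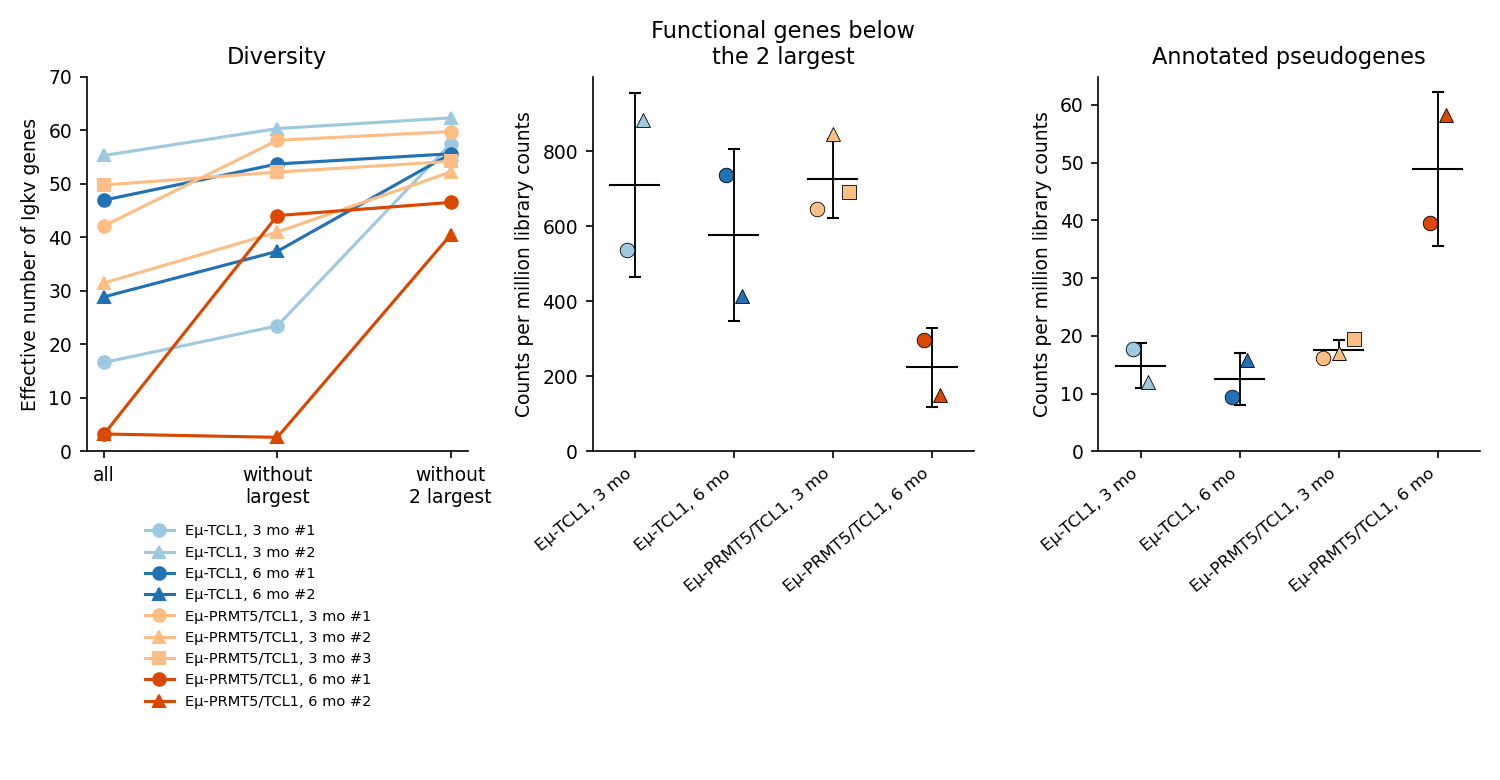
Left, effective number of Igkv genes with all genes, without the largest and without the 2 largest, a line per mouse. Middle and right, level (CPM) of functional genes below the 2 largest and of annotated pseudogenes, with points for mice, horizontal bars for group means and error bars for the SD (n = 2 or 3). The 6-month Eµ-PRMT5/TCL1 mice start at 3.21 and 3.25 and end at 46.5 and 40.5, and they are lowest in the middle panel and highest in the right one.

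The 7 other libraries resembled one another in V gene use. The shared share, the sum over genes of the smaller of the values of 2 libraries, ranged from 43.2% to 77.95% over their 21 pairs, with a median of 68.5%. It ranged from 6.76% to 18.1% over the 14 pairs of a 6-month Eµ-PRMT5/TCL1 library with another library, and was 6.39% between the 2 6-month Eµ-PRMT5/TCL1 libraries. With the 2 largest genes of each library left out, these values were 72.8% to 80.7%, 41.9% to 58.8% and 53.4%. The 53.4% of the 2 6-month Eµ-PRMT5/TCL1 backgrounds lay between 2 separate ranges. Replicate 1 shared 56.5% to 58.8% with the other 7 mice, and replicate 2 shared 41.9% to 45.6% with them. The pairs share libraries and are given as a description.

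A common core of V genes was found in the 7 other libraries. Of 34 genes that ranked among the 10 largest of any library, 5 did so in all 7: Igkv5-39, Igkv14-126, Igkv10-96, Igkv1-117 and Igkv6-15. Igkv14-126, Igkv10-96 and Igkv5-39 also ranked 2, 5 and 9 in replicate 1 of the 6-month Eµ-PRMT5/TCL1 mice, and 16, 14 and 20 in replicate 2. Igkv10-96 held 1.85% to 6.49% in the other 7 and 1.03% and 0.128% in the 6-month Eµ-PRMT5/TCL1 mice. Igkv1-117 held 1.76% to 3.903% against 0.2998% and 0.0627%. Of the counts below the 2 largest genes, Igkv10-96 held 6.24% and 1.72% in these 2 mice. Where it was kept in the others, it held 4.15% to 4.92%. Igkv1-117 held 1.82% and 0.844% against 3.34% to 5.45%. In all, 72 of 160 genes had at least 3 counts in every library, and 11, none of them functional, had none in any.

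Family use followed the leading genes. Family 5, which contains Igkv5-39, Igkv5-43 and Igkv5-48, was the largest family in 4 libraries and held 58.2% in replicate 1 of the 3-month Eµ-TCL1 mice. In 6-month Eµ-PRMT5/TCL1 mice it held 1.06% in replicate 1 and 49.8% in replicate 2. Family 3 held 83.99% in replicate 1 and 0.569% in replicate 2, against 3.59% to 6.13% in the other 7, and family 4 held 3.64% and 45.03% against 8.14% to 20.6%. No family was high in both mice.

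The effective number of families was 2.26 and 2.65 in the 6-month Eµ-PRMT5/TCL1 libraries and 5.5 to 12.8 in the other 7, and without the 2 largest genes it was 11.4 and 9.53 against 11.6 to 12.95. In that background families 2 and 4 took larger shares in both 6-month Eµ-PRMT5/TCL1 mice, at 8.42% and 15.1% against 2.14% to 4.83% for family 2, and 22.1% and 28.2% against 13.5% to 19.8% for family 4. Families 1 and 8 took smaller shares, at 7.61% and 5.55% against 9.78% to 14.6%, and at 4.66% and 4.64% against 6.601% to 14.1%. Family 4 includes the pseudogenes Igkv4-77 and Igkv4-75. They held 4.14% and 1.39% of that background in replicate 1 and 13.2% and 3.15% in replicate 2. In the other 7 libraries they held at most 0.979% and 0.248%. In family 2, Igkv2-109 and the pseudogene Igkv2-107 held 5.27% and 2.195% of that background in replicate 1. In replicate 2 they held 10.3% and 4.35%, and in the other 7 libraries at most 3.197% and 1.315%. The family shares without these genes were not computed. These family values are descriptions over 2 mice and were not tested.

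The leading genes differed in position and orientation. Igkv3-5 lies 59 kb from Igkj1, the nearest J segment, and in its orientation. Igkv5-48 and Igkv4-80 lie 996 and 1706 kb away in the opposite orientation. Genes in the orientation of Igkj1, 75 of 160, accordingly held 90.4% of counts in replicate 1 and 3.04% in replicate 2 of the 6-month Eµ-PRMT5/TCL1 mice, against 18.7% to 44.9% in the other 7. Without the 2 largest genes they held 41.8% and 40.99%, inside the 38.9% to 51.9% of the others.

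Across the locus, the 53 genes nearest to Igkj1, at 18.7 to 1041 kb, held 88.7% and 52.1% in the 6-month Eµ-PRMT5/TCL1 mice and 34.4% to 72.99% in the other 7. The 54 farthest genes held 7.36% and 2.62% against 17.8% to 48.6%. Without the 2 largest genes those 53 genes held 42.3% and 33.7%, against 34.5% to 47.04%, and the 53 genes in the middle held 23.8% and 31.2%, against 14.7% to 21.6%. The background was thus spread along the whole locus in every library, with a larger share of the middle genes in the 6-month Eµ-PRMT5/TCL1 mice. Those middle genes include the pseudogenes Igkv4-77 and Igkv4-75. Of this background, the 2 pseudogenes held 4.14% and 1.39% in replicate 1 and 13.2% and 3.15% in replicate 2. In the other 7 libraries they held at most 0.979% and 0.248%. The share of the middle genes without them was not computed.

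**Figure D4:**
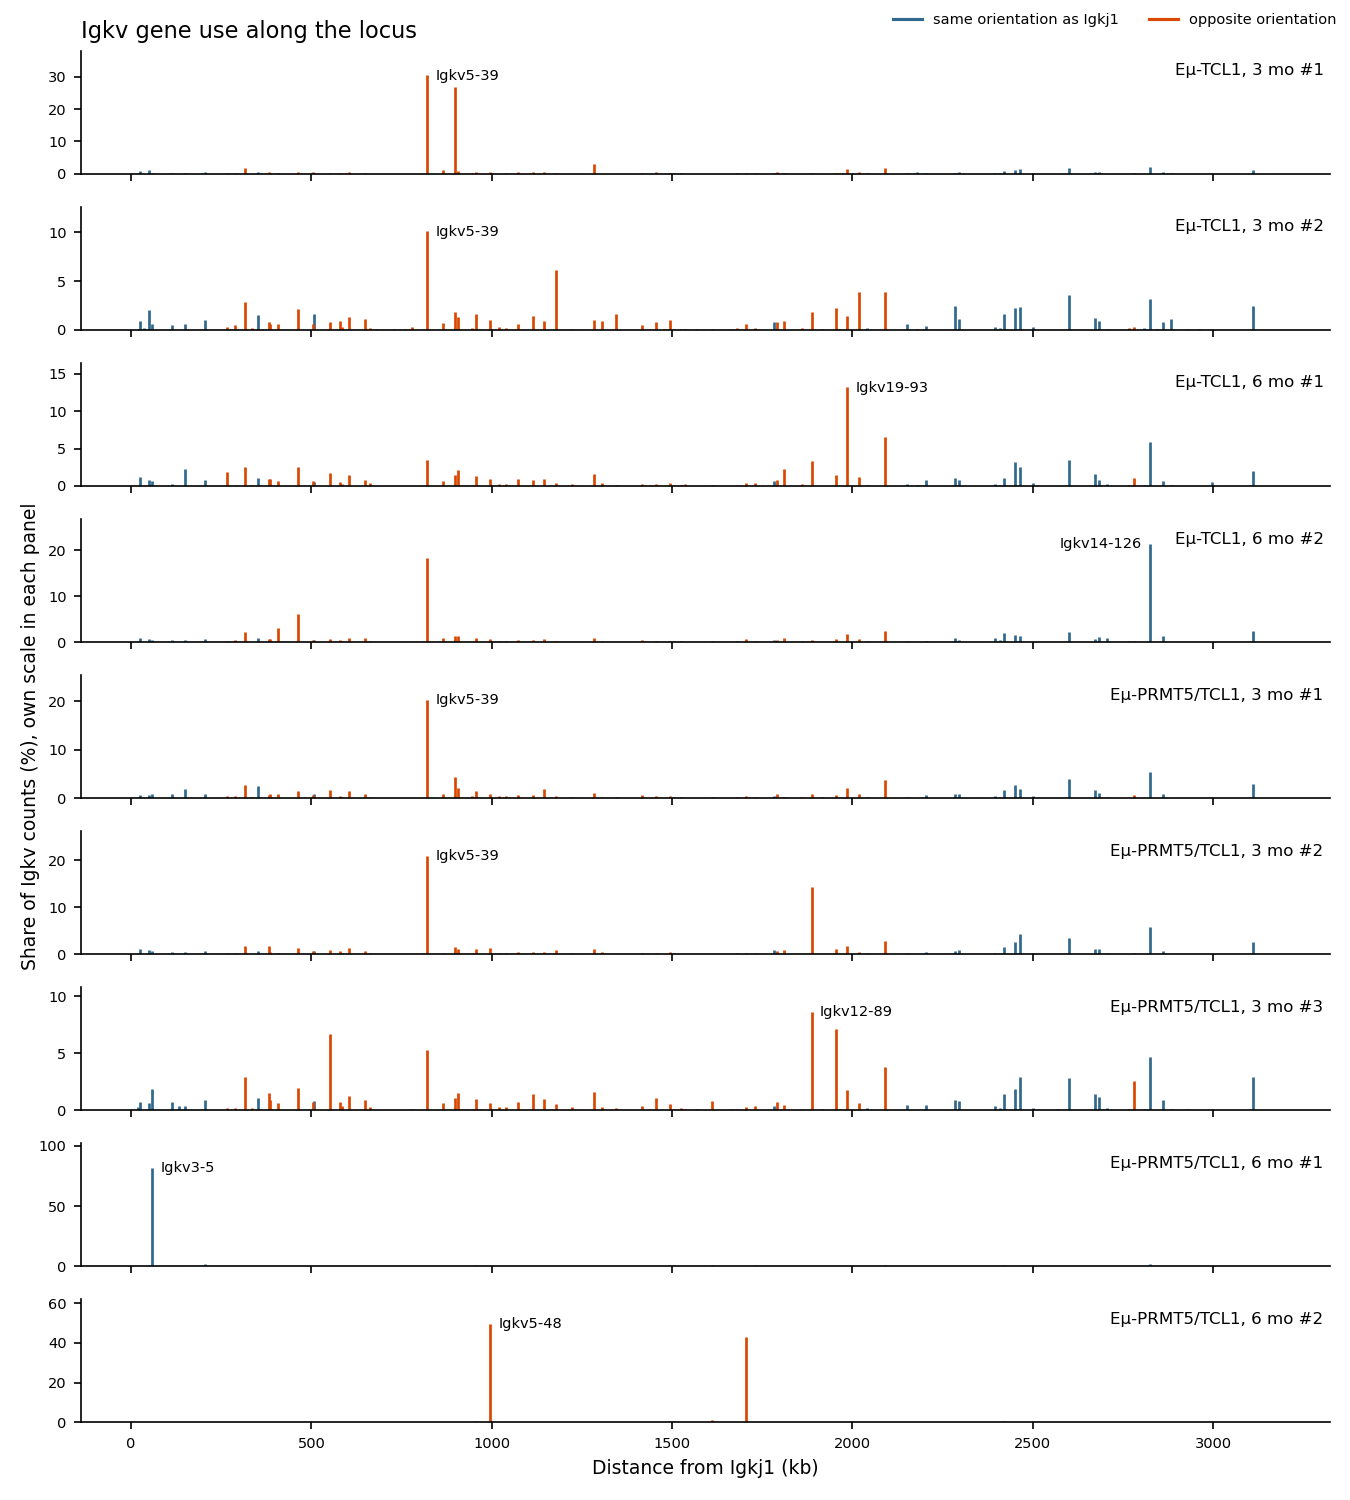
Share of Igkv counts of each V gene (percent, y axis with its own linear scale in each panel) against its distance from Igkj1 (kb), a panel per mouse, blue for genes in the orientation of Igkj1 and orange for the opposite orientation, with the largest gene named. The tall bars of the 6-month Eµ-PRMT5/TCL1 mice stand at 59, 996 and 1706 kb, while low bars run along the whole locus in the other 7 panels.

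Gene by gene, levels were compared with the quasi-likelihood test of edgeR fitted on all 18795 genes that passed the filter on low counts, with Benjamini-Hochberg adjustment over those genes. Of 160 Igkv genes, 93 passed it (85 functional genes and 8 pseudogenes). The 67 others, 52 of them pseudogenes, had at most 40 counts in a library and together at most 1.23% of its Igkv counts. Of the 93, 92 had reached the minimum in the 7 other libraries alone, the exception being Igkv2-116, whereas 46 reached it in both 6-month Eµ-PRMT5/TCL1 libraries. The filter thus kept mostly genes used in the other 7 mice, and counts over the 93 are given with that limit.

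Between 3 and 6 months in Eµ-PRMT5/TCL1 mice, 31 Igkv genes fell and 3 rose. The 31 were 33.3% of the 93, where 10.4% of all genes tested were called lower, and the 3 were 3.23%, where 12.1% of all genes were called higher. The median log2 fold change was -1.84 over the 93 genes and -0.0236 over all genes tested, or -1.78 with the 2 genes that had no count at 6 months, Igkv4-90 and Igkv12-38, set at their bounds. The values of the 2 groups did not overlap for 58 lower and 7 higher Igkv genes, against 26.9% and 26.4% of all genes. Every gene that fell was functional, in 11 families with 10 of the 31 in family 4, and every gene that rose was annotated as a pseudogene. The second statement holds for this robust edgeR fit: DESeq2 called 7 genes higher and edgeR without robust estimation 6, among them the functional genes Igkv3-5, Igkv5-48 and Igkv4-80 in both. Leaving out a library gave 14 to 38 Igkv genes past the threshold, with 16, 22 and 14 without replicates 1, 2 and 3 at 3 months and 17 without replicate 2 at 6 months.

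Igkv1-135, a functional gene near the far end of the locus, had the smallest adjusted p. Its normalized CPM (scaled by TMM, the trimmed mean of M values) was 23.96, 33.98 and 23.5 at 3 months and 2.81 and 2.02 at 6 months in Eµ-PRMT5/TCL1, and 15.04 to 25.8 in the 4 Eµ-TCL1 mice. Its log2 fold change with age was -3.48 (SE 0.31, adjusted p = 0.000717), and both 6-month values lay far below the other 7. Igkv17-121 went from 8.88, 13.6 and 9.41 to 1.54 and 0.749 (log2 fold change -3.19, SE 0.39, adjusted p = 0.0015). Igkv13-85 went from 6.51, 8.41 and 5.49 to 0.735 and 0.374 (-3.58, SE 0.48, adjusted p = 0.00207).

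Igkv4-70 and Igkv6-32 completed the 5 lower genes with the smallest adjusted p. Igkv4-70 went from 3.45, 2.61 and 8.39 normalized CPM to 0.134 and 0.225 (log2 fold change -4.69, SE 0.72, adjusted p = 0.00368), and its 6-month values were near the 3-count level. Igkv6-32 went from 7.196, 7.898 and 7.45 to 1.404 and 1.27 (-2.48, SE 0.39, adjusted p = 0.00391). These 5 genes belong to 5 families, and each was lower in both 6-month mice than in the other 7 libraries. The log2 fold changes of the 30 falling genes with counts in both groups ranged from -4.69 to -1.37. Igkv4-90 had no count at 6 months and a mean of 0.782 normalized CPM at 3 months, at least 3.68-fold lower against 3 counts per library (adjusted p = 0.033).

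The 3 genes that rose were Igkv4-75, Igkv4-77 and Igkv2-107, all pseudogenes. Igkv4-75 had 0.0766, 0.725 and 0.627 normalized CPM at 3 months and 5.15 and 7.26 at 6 months (log2 fold change 3.67, SE 0.56, adjusted p = 0.00334), with 0.232 to 1.29 in Eµ-TCL1 mice. Its counts were 1, 10 and 8 at 3 months and 77 and 97 at 6 months, so the lowest value lay below the 3-count level. Igkv4-77 had 2.22, 1.38 and 6.66 at 3 months and 15.4 and 30.5 at 6 months (2.75, SE 0.59, adjusted p = 0.017). Igkv2-107 had 3.37, 4.28 and 2.67 at 3 months and 8.16 and 10.03 at 6 months (1.40, SE 0.40, adjusted p = 0.0377). Its call held in 8 of 16 alternatives, against 16 for Igkv4-75 and 12 for Igkv4-77. All 3 were higher in both 6-month Eµ-PRMT5/TCL1 mice than in any of the other 7.

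The split by annotation was noticed after the values were seen and is a description. Of 8 pseudogenes tested, 7 had a positive log2 fold change, with a median of 1.32. Among the 8 is Igkv2-116, which passed the filter only with the 6-month Eµ-PRMT5/TCL1 libraries. Of 85 functional genes, 13 had a positive value, with a median of -2.02. Summed over all 60 pseudogenes, the level was 39.5 and 58.2 CPM in the 6-month Eµ-PRMT5/TCL1 mice, 16.2, 16.96 and 19.5 CPM at 3 months, and 9.41 to 17.6 CPM in Eµ-TCL1 mice. Without the 2 largest genes, the functional genes summed to 298 and 150 CPM in the 6-month Eµ-PRMT5/TCL1 mice and to 415 to 884 CPM in the other 7.

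Relative to all Igkv counts the pseudogenes held 1.93% and 2.08% in the 6-month Eµ-PRMT5/TCL1 mice and 1.012% to 2.31% elsewhere. As a share of the counts below the 2 largest genes they reached 11.7% and 27.96% against 1.26% to 3.66%. Igkv4-77 was the largest pseudogene in both 6-month mice, at 35.3% and 47.3% of pseudogene counts, and in replicate 3 at 3 months, at 35.7%, where Igkv2-107 was the largest in the other 6 libraries. Over the V exon Igkv4-77 is 91.3% identical to Igkv4-80. At 6 months Igkv4-80 had 14 counts in replicate 1 and 17802 in replicate 2, and Igkv4-77 had 230 and 407. Whether fragments of leading V genes were counted at related pseudogenes was not tested.

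Each of the leading genes was high in a single mouse, and whether it passed the threshold between ages depended on the test. None of the 3 passed in the robust edgeR fit used here. Igkv3-5 had 6.89, 7.75 and 15.2 normalized CPM at 3 months and 1841 and 0.674 at 6 months (log2 fold change 6.53, SE 2.22, adjusted p = 0.0903). Igkv5-48 had 7.81, 17.9 and 4.78 at 3 months and 3.08 and 1541 at 6 months (6.24, SE 2.04, adjusted p = 0.0809). Igkv4-80 had 3.29, 1.88 and 2.35 at 3 months and 0.936 and 1333 at 6 months (8.05, SE 2.34, adjusted p = 0.0596). For all 3 the 6-month values lay on both sides of the 3-month values. DESeq2 called all 3 higher, with adjusted p = 0.0031 for Igkv3-5, 0.00171 for Igkv5-48 and 8.83e-05 for Igkv4-80, and so did edgeR without robust estimation, with adjusted p = 0.0376, 0.0328 and 0.0222.

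Igkv5-39, the recurrent leading gene of the younger mice, had 173, 274 and 42.8 normalized CPM in 3-month Eµ-PRMT5/TCL1 mice and 13.4 and 3.07 at 6 months. The groups did not overlap, but the spread at 3 months was wide and the difference did not pass the threshold of the robust edgeR fit (log2 fold change -4.30, SE 1.34, adjusted p = 0.0719). It passed by DESeq2 (adjusted p = 0.00117) and by edgeR without robust estimation (adjusted p = 0.0288). In Eµ-TCL1 mice it stood at 369 and 107 at 3 months and 32.6 and 131 at 6 months.

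**Figure D5:**
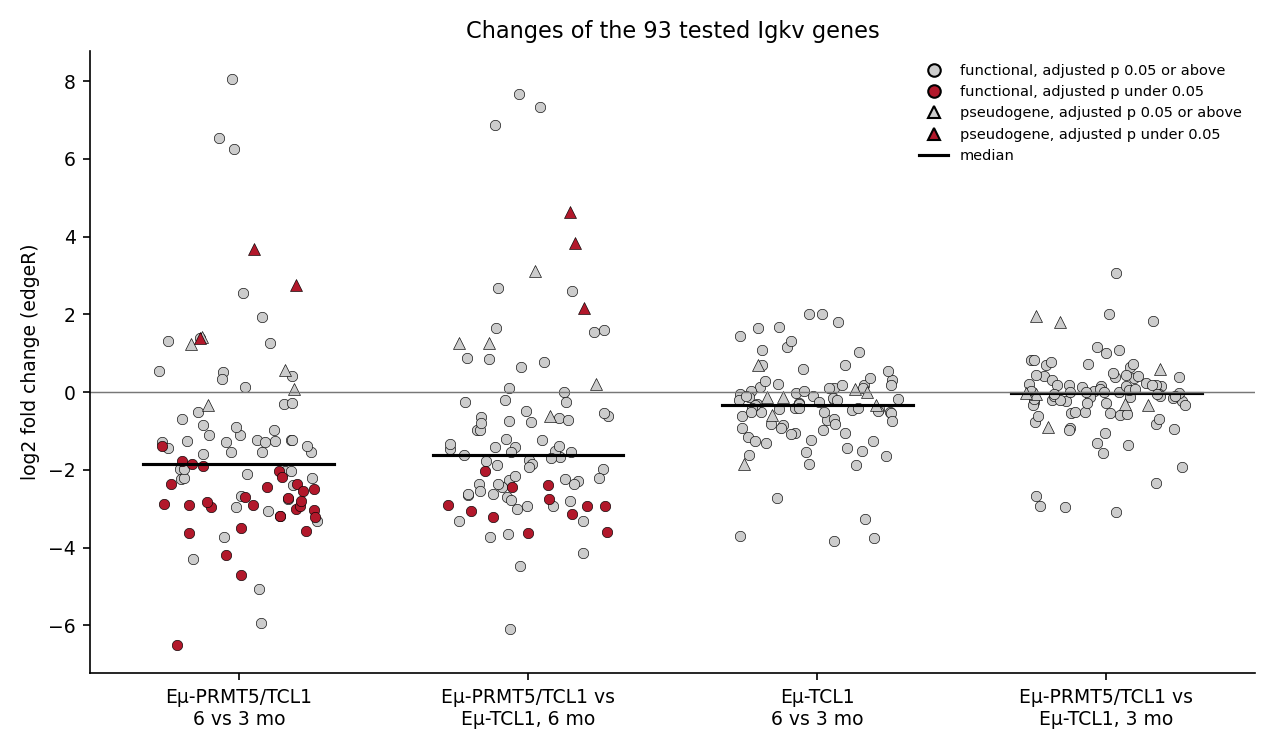
Log2 fold change from edgeR (y axis) of the 93 tested Igkv genes in 4 comparisons, circles for functional genes, triangles for pseudogenes, red for an adjusted p under 0.05 and black lines for the median, with a random horizontal offset. The medians are -1.84 and -1.60 in the comparisons that use the 6-month Eµ-PRMT5/TCL1 mice, where all red triangles lie above 0 and all red circles below, and -0.33 and -0.02 in the other 2. The lowest red circle, Igkv4-90, has no count in those mice, so its fitted value is no bound.

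At 6 months, Eµ-PRMT5/TCL1 and Eµ-TCL1 mice differed in 15 Igkv genes, 12 lower and 3 higher in Eµ-PRMT5/TCL1. The 2 groups also differed throughout in Y-linked transcripts, so sex and genotype cannot be told apart here. The 12 were 12.9% of those tested, where 5.39% of all genes were called lower, and the 3 were 3.23%, where 6.4% of all genes were called higher. The median log2 fold change was -1.60 over the Igkv genes and -0.00973 over all genes. This comparison uses the same 6-month Eµ-PRMT5/TCL1 libraries as the comparison of ages. The 12 lower genes were again functional, in 7 families, with log2 fold changes from -3.61 to -2.03. In a fit of these 2 groups alone no Igkv gene passed the threshold and 32 had an unadjusted p under 0.05, and leaving out a library from the full fit gave 9 (without Eµ-TCL1 replicate 1 at 6 months) to 33 (without Eµ-PRMT5/TCL1 replicate 1 at 6 months).

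Igkv1-135 stood at 19.1 and 17.04 normalized CPM in 6-month Eµ-TCL1 mice, against the 2.81 and 2.02 given above (log2 fold change -2.89, adjusted p = 0.00218). Igkv17-121 differed by -2.75 (adjusted p = 0.00485), Igkv13-85 by -3.21 (adjusted p = 0.0057) and Igkv6-32 by -2.39 (adjusted p = 0.00829) on the log2 scale. Igkv4-53 had 8.86 and 3.01 in Eµ-TCL1 and 0.735 and 0.674 in Eµ-PRMT5/TCL1 (log2 fold change -3.06, adjusted p = 0.00687). The higher genes were the pseudogenes Igkv4-75, with 0.232 and 0.256 in Eµ-TCL1 (log2 fold change 4.62, adjusted p = 0.00506), Igkv4-77, with 1.51 and 1.67 (3.85, adjusted p = 0.0158), and Igkv12-47. For Igkv4-75 the Eµ-TCL1 values were 4 counts in each library, near the 3-count level. Igkv12-47 had 0.2895 and 0.769 in Eµ-TCL1 (5 and 12 counts) and 1.61 and 3.15 in Eµ-PRMT5/TCL1 (2.16, adjusted p = 0.0375). Its call held in 6 of 16 alternatives, against 15 for Igkv4-75 and 12 for Igkv4-77. Myeloid markers, all 9 of them detected, summed to 14470 and 8353 CPM in the 6-month Eµ-TCL1 mice and to 8383 and 1047 CPM in the 6-month Eµ-PRMT5/TCL1 mice, and their part in these differences was not tested.

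No Igkv gene passed the threshold of edgeR between 6 and 3 months in Eµ-TCL1 mice, in a comparison where 0% of all genes were called in either direction. The smallest adjusted p was 0.434, 10 Igkv genes had an unadjusted p under 0.05, and DESeq2 called 1, Igkv9-129, as lower. The median log2 fold change of the 93 genes was -0.33. The genotypes at 3 months likewise had 0 Igkv genes called, where 0% of all genes were called, with 8 at an unadjusted p under 0.05, none by DESeq2 and a median of -0.02. With 2 or 3 mice a group, and V genes that varied as much between mates as Igkv5-43 did, differences within that spread were not detectable.

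The difference between the age effects of the genotypes, tested as an interaction, passed the threshold for 7 Igkv genes, 6 more negative and 1 more positive in Eµ-PRMT5/TCL1. The 6 were 6.45% of those tested, where 1.78% of all genes were called in that direction, and the 1 gene, Igkv4-75, compares with 2.19% of all genes. Igkv1-135 changed by -3.48 with age in Eµ-PRMT5/TCL1 and by -0.17 in Eµ-TCL1 on the log2 scale (adjusted p = 0.0108), and Igkv17-121 by -3.19 and -0.02 (adjusted p = 0.0199). None of the 7 passed without Eµ-TCL1 replicate 1 at 3 months, and with other libraries left out the count ran up to 21.

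The remaining parts of the light chain genes were followed for context. Igkc, the kappa constant exon, had 587, 900.1 and 645 normalized CPM in 3-month Eµ-PRMT5/TCL1 mice and 1813 and 2751 at 6 months (log2 fold change 1.68, SE 0.23, adjusted p = 0.00299), and 474 to 829 in Eµ-TCL1 mice. Of the 6 constant and joining genes of the kappa locus, Igkc and Igkj3 rose with age in Eµ-PRMT5/TCL1 and none fell, in a comparison where 12.1% of all genes were called higher and 10.4% lower. Igkj3 had 23.6, 27.97 and 18.8 at 3 months and 35.6 and 72.3 at 6 months (1.20, SE 0.32, adjusted p = 0.0327). At 6 months, Igkc, Igkj3, Igkj4 and Igkj5 were called higher than in Eµ-TCL1 and none lower. In that comparison 6.4% of all genes were called higher and 5.39% lower, and sex cannot be told apart from genotype. The 4 calls held in 15, 11, 11 and 9 of 16 alternatives, in that order. Igkj1 had 14.7 and 1.497 in the 2 6-month Eµ-PRMT5/TCL1 mice, and its share of Igkj counts was 0.536% in replicate 2 and 7.09% to 9.603% in the other 8 libraries.

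Kappa constant counts were 71.5% and 74.3% of light chain constant counts in the 6-month Eµ-PRMT5/TCL1 mice and 44.5% to 61.5% in the other 7. Of the 9 lambda genes tested, where the same shares of all genes apply, Iglc3 rose with age in Eµ-PRMT5/TCL1 (log2 fold change 1.23, SE 0.16, adjusted p = 0.00173) and Iglv2 fell (-3.57, SE 0.90, adjusted p = 0.037). Iglv2, a lambda V gene, had 95.6, 48.3 and 46.8 normalized CPM at 3 months and 6.22 and 4.42 at 6 months. The heavy chain V genes, Ighv, had effective numbers of 2.49 and 1.74 in the 6-month Eµ-PRMT5/TCL1 mice and 34.9 to 61.1 in the other 7.

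Of 17 regulators of the kappa locus, 3 rose with age in Eµ-PRMT5/TCL1 and none fell, with a list median of 0.14 on the log2 scale. With 12.1% of all genes called higher, that share is near the background and is no result about the list. Irf4, a transcription factor that acts at the kappa 3′ enhancer and in plasma cell differentiation, had 167, 188 and 155 normalized CPM at 3 months and 526 and 373 at 6 months (log2 fold change 1.40, SE 0.15, adjusted p = 0.00106). The 10 plasma cell markers, all detected, summed to 1429 and 1548 CPM in the 6-month Eµ-PRMT5/TCL1 mice and to 697 to 1442 CPM in the other 7, and their part in these changes was not tested. Pou2af1, a coactivator of octamer-binding factors at immunoglobulin promoters, changed by 0.95 (SE 0.10, adjusted p = 0.00106), and Spib, an Ets-family factor, by 0.83 (SE 0.18, adjusted p = 0.0133). Of 8 partners of the B-cell receptor, against the same 12.1% of all genes, the kinase Syk rose by 0.99 and the receptor subunit Cd79b by 0.72 on the log2 scale (adjusted p = 0.00408 and 0.0143). Of the 7 surrogate light chain and recombination genes 3 could be tested, against 10.4% of all genes called lower, and Dntt, the terminal transferase that adds bases at V(D)J joints, fell by 1.85 on the log2 scale (SE 0.42, adjusted p = 0.0158). In Eµ-TCL1 mice no gene of these lists passed the threshold with age.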

How the data were processed

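RNA of negatively selected splenic B cells from 9 mice was sequenced as stranded mRNA libraries of read pairs. The authors trimmed the reads with Cutadapt, aligned them with STAR 2.6.0c to GRCm38 and counted fragments per gene with featureCounts 1.4.6-p5 on Ensembl release 95, and the deposited values are raw counts. Counting used primary alignments and no strand setting, so near-identical V genes can exchange counts, and genes that overlap on opposite strands cannot be told apart. Somatic mutations and joined ends were not part of the reference and can lower the counts of a gene. Groups came from the label giving genotype, age and number. The same numbers recur across groups and did not pair the mice.

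Total counts were 12233230 to 17330246 per library and Igkv counts 10305 to 41461. Wilson 95% intervals and floors of 3 counts cover counting error only, as PCR copies are not independent molecules. Counts were tested in R 4.3.3 with edgeR 4.0.16 (filterByExpr, TMM, a single robust quasi-likelihood fit of the 4 groups) with Benjamini-Hochberg adjustment at 0.05, and scripts were tested on simulated data. DESeq2, which the study used in an earlier version, was run here as version 1.42.0 as an alternative. The filter asked for a count of about 10 (0.732 CPM) in 2 libraries and a total of 15. Names, classes and positions came from the GENCODE annotation of GRCm38, and all 160 Igkv genes matched it. Shares, effective numbers and identities were computed with pandas 2.3.3 and Biopython 1.88. Diversity values, sums and family shares were not tested.

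Genes named were the 3 largest of each library, up to 5 higher and 5 lower Igkv genes with the smallest adjusted p per comparison, the nearest relatives of leading genes, and genes of 5 lists (kappa constant and joining, lambda, surrogate light chain and recombination, kappa locus regulators, B-cell receptor partners). Others named (Igkv4-90, Igkv12-38, Igkv2-116, Igkv9-129, Igkv10-96, Igkv1-117, Igkv6-15) were chosen after their values were seen. The members, lists and marker genes were chosen with earlier results of these data known. Alternatives were other size factors, no filter, a fit without robust estimation, a replicate block, a fit of only the groups compared, leaving out each library, exon-length scaling, merging of near-identical genes, functional genes only, thinning and another index.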

Additional observations from a re-analysis of the deposited data

Results flagged for a closer look

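Among the Igkv genes and the genes of the 5 lists, the effect of age differed between the genotypes for 14. The test was the interaction term of the edgeR fit with Benjamini-Hochberg adjustment over all 18795 genes tested. Of all those genes, 411 (2.19%) were called more positive and 334 (1.78%) more negative in Eµ-PRMT5/TCL1. Sex cannot be told apart from this interaction. The values are differences in log2 fold change, Eµ-PRMT5/TCL1 minus Eµ-TCL1. Among the functional V genes these were -3.31 for Igkv1-135, -3.17 for Igkv17-121, -3.07 for Igkv13-85, -3.03 for Igkv4-53, -3.14 for Igkv4-50 and -3.61 for Igkv6-23. In Eµ-TCL1 the age effect was between -0.50 and 0.21 for the first 5 and 1.17 for Igkv6-23. The pseudogene Igkv4-75 differed by 5.52, from 3.67 in Eµ-PRMT5/TCL1 and -1.85 in Eµ-TCL1. It had 4 counts in each 6-month Eµ-TCL1 library and 1 count in replicate 1 of the 3-month Eµ-PRMT5/TCL1 mice, near or below the 3-count level.

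Of the kappa and lambda constant genes, Igkc differed by 2.17 and Iglc3 by 1.45. Pou2af1 differed by 1.34, Irf4 by 1.38, Spib by 1.41, Syk by 1.23 and Cd79b by 1.05. Of 15 alternatives, the call held in 12 for Pou2af1 and in 9 each for Irf4, Spib and Syk. It held in 8 each for Igkc and Iglc3 and in 6 for Cd79b. Leaving out replicate 1 of the 3-month Eµ-TCL1 mice left none of the 7 Igkv genes past the threshold.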

How the results depend on the processing

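The count of Igkv genes past the threshold between ages in Eµ-PRMT5/TCL1 was 34, and 28 to 45 under other size factors, DESeq2, no filter, no robust estimation or a fit of the 2 groups. Leaving out each library gave 14 to 38, with 16, 22 and 14 without replicates 1, 2 and 3 of the 3-month Eµ-PRMT5/TCL1 mice and 17 without replicate 2 at 6 months. Between genotypes at 6 months the count was 15, 39 by DESeq2, 0 in the fit of the 2 groups alone (32 at an unadjusted p under 0.05) and 9 to 33 with a library left out (9 without Eµ-TCL1 replicate 1 at 6 months, 33 without Eµ-PRMT5/TCL1 replicate 1 at 6 months). The interaction count was 7, 21 by DESeq2, 10 with no filter and 0 to 21 with a library left out. It was 0 without Eµ-TCL1 replicate 1 at 3 months, 1 without Eµ-TCL1 replicate 1 at 6 months, 2, 3 and 1 without Eµ-PRMT5/TCL1 replicates 1, 2 and 3 at 3 months, and 21 without replicate 1 at 6 months. Between ages in Eµ-TCL1 the count was 0, 1 by DESeq2 and 0 to 1 with a library left out (Igkv19-93 higher without replicate 2 at 6 months), and between genotypes at 3 months 0 in all settings. The cause was not tested.

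With the replicate number as a block the counts were 11 between ages in Eµ-PRMT5/TCL1, 0 in Eµ-TCL1, 0 and 12 between genotypes at 3 and 6 months, and 0 for the interaction. Same-numbered mice deviated with a mean correlation of -0.103 (range -0.241 to 0.185), so the numbers were not read as pairs. A block with crossed numbers in Eµ-TCL1, chosen after seeing the data, also called 0.

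The mean effective number of the 6-month Eµ-PRMT5/TCL1 mice minus that of the other 7 was -35.5, from -39.2 to -32.8 with a library left out, and -18.1 with the inverse Simpson index. For the largest share the difference was 47.8 percentage points, and 31.8 and 63.9 without replicates 1 and 2 of the 6-month Eµ-PRMT5/TCL1 mice. Below the largest gene the difference in effective number was -23.3, from -44.0 to -2.53 without those replicates, -13.3 without the 2 largest genes, and -12.8 after thinning too, which was chosen after seeing the data. With a library left out, the log2 fold change of Igkv3-5 ran from -3.85 (without replicate 1, adjusted p = 0.0175) to 7.55 between ages and from -2.73 to 8.66 between genotypes at 6 months. Igkv4-80 ran from -1.40 (without replicate 2) to 9.06 and from -2.13 to 8.33, and Igkv5-48 from -1.71 to 7.24 and from -1.09 to 7.86. Of 979 values of named genes under alternatives, these 6 reversed, 197 no longer passed the threshold and 18 newly passed it, for Igkv3-5, Igkv4-80, Igkv5-48 and Igkv5-39 over 8 pairs of gene and comparison. DESeq2 called these 4 genes in both comparisons with the 6-month Eµ-PRMT5/TCL1 mice. Low counts limit the genes outside the 93 tested.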
